A study of Mus musculus with 16 samples.

Results

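The genes described here are the small nuclear, nucleolar and Y RNA genes of the mouse: every gene on the array whose symbol begins with Snord, Snora, Scarna, Rnu or Rny followed by a digit, where the probe set is paired with that symbol alone. There were 61 such genes among 19934 gene symbols, namely 31 Snord, 20 Snora, 5 Rnu, 3 Scarna and 2 Rny genes. The members were found by symbol, but the set was proposed, and Rnu12, Rnu3a, Rny1 and Snord118 were chosen by name, with their signals in these groups known, ERG/GATA1s against WT included. Values of these 4 genes are therefore descriptions without a test, and the counts over the whole set are also given without them.

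Each of these genes makes a short RNA that works without being translated. Box C/D snoRNAs (Snord) guide 2'-O-methylation and box H/ACA snoRNAs (Snora) guide pseudouridylation of ribosomal RNA, and scaRNAs (Scarna) guide the same changes on spliceosomal RNAs in Cajal bodies. A few, such as the U3 RNA (Rnu3a), the U8 RNA (Snord118) and the U17 RNAs (Snora73a and Snora73b), are needed for cutting and folding the ribosomal precursor. U12 RNA (Rnu12) recognises the branch site of minor-class introns, and the Y RNAs (Rny1, Rny3) are RNA polymerase III transcripts bound by the Ro60 protein. Most snoRNAs are cut from introns of host genes, often genes for ribosomal proteins, whereas U3, U8, U12 and Y RNAs come from genes with their own promoters. Fetal liver is the main site of red cell and platelet production before birth.

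RNA came from single-cell suspensions of fetal liver of embryos at embryonic day 12.5 (E12.5) or 14.5 (E14.5). At each stage there were embryos labelled wild type (WT), embryos carrying an ERG transgene (ERG Tg, here ERG), embryos labelled WT/GATA1s (here GATA1s) and embryos labelled ERG/GATA1s. The series title calls GATA1s a knock-in. ERG is an ETS-family factor active in early blood and megakaryocyte cells, and GATA1s is the short form of GATA1, a factor of red cells and megakaryocytes. Neither the promoter that drives the transgene nor the zygosity of GATA1s is given in the labels, which name no agent. Each of the 8 groups had 2 arrays, 1 labelled female and 1 labelled male. Nothing in the labels says whether an array holds 1 embryo or a pool, so the p-values measure the spread between these arrays, which may be technical. The design asks how ERG acts with either form of GATA1, and the small RNA genes are followed here across those groups.

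Values are log2 signals, so a difference of 1 is a doubling. Array medians lay between 4.79 and 4.94. The Erg probe set read 5.35 to 5.53 in WT, 5.58 to 5.88 in ERG, 5.32 to 5.80 in GATA1s and 5.66 to 6.01 in ERG/GATA1s, and whether it reads the transgene is not given. Gata1 read 9.22 to 10.02 over all arrays, which does not tell its forms apart. On 3 arrays Xist and the Y-linked genes opposed the labelled sex: the male-labelled GATA1s and ERG/GATA1s arrays at E12.5, and the female-labelled ERG/GATA1s array at E14.5. The identity of these 3 samples is therefore in doubt, and the Erg and Gata1 signals do not settle it. By these markers both ERG/GATA1s arrays at E14.5 read as male (Xist 4.22 and 4.19). The WT arrays of that stage read as female and male (Xist 11.52 and 3.94). At E12.5 all GATA1s and ERG/GATA1s arrays read as female (Xist 9.51 to 10.08). Sex and genotype are thus partly mixed in comparisons with these groups and cannot be fully told apart. The fit used the labelled sex. The male-labelled WT array at E12.5 and ERG array at E14.5 had high Xist (9.35 and 10.03) beside Y-linked signals. All measured markers listed for erythroid cells (4 of 7), hepatocytes (5 of 6), macrophages (4 of 4) and megakaryocytes (4 of 4) passed the filter on low signals. The 5 neuron markers passed it too, so passing does not tell these cell types apart. Their mean was at most 4.18 on any array.

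Of the 61 genes, 57 passed the filter on low signals (above 3.74 on at least 2 arrays) and were tested. Rnu6, Rnu7, Snord38a and Snord61 did not pass, with highest signals of 3.49, 3.25, 4.07 and 4.17. Among the tested genes, 5 lie in no other RefSeq gene (Rnu12, Rnu3a, Rny1, Rny3 and Snord118) and 52 lie within another gene, called the host here, 36 of them in a protein-coding one. Lengths ran from 45 to 275 bases. No promoter entry exists in the RefSeq table for any of the 61 genes, while 33 of 47 overlapping host genes have one. The start regions of 4 hosts are shown because RNAs that lie in them carry results: Snhg10 holds Scarna13, Snhg3 holds Snora73a and Snora73b, Snhg12 holds Snora16a and Snora44, and Rack1 holds Snord95 and Snord96a. Each line gives 150 bases before the start and 20 from it, 5′ to 3′ on the gene's strand, from RefSeq on GRCm38.p6, with GATA hexamers in capitals.
Snhg10, chr12:105032260-105032429, minus strand: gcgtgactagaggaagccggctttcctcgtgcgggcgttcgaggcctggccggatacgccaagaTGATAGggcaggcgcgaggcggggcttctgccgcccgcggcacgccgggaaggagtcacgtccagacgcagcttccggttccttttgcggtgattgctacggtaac
Snhg3, chr4:132353667-132353836, minus strand: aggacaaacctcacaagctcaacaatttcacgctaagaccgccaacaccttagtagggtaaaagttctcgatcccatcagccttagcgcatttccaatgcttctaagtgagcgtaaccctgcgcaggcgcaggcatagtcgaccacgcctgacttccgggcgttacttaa
Snhg12, chr4:132308528-132308697, plus strand: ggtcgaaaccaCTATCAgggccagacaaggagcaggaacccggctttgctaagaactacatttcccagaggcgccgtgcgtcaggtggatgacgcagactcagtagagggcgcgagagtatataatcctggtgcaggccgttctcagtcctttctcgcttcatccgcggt
Rack1, chr11:48800210-48800379, plus strand: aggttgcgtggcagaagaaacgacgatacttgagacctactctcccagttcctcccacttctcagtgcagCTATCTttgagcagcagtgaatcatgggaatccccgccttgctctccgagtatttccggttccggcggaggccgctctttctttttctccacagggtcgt

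The hexamers searched were AGATAA as well as TGATAA, and AGATAG as well as TGATAG, on either strand, over 250 bases before and 50 bases from the start. They stood in 8 of 35 host promoters (22.9%) against 29.8% of all 32851 promoters in the table. The letters ATGCAAAT or their reverse, searched before the start on either strand, were in 1 host promoter (2.86%; 1.60% of all). The letters TATAA in the 40 bases before the start, on the gene's strand, were in 4 host promoters (11.4%; 4.23% of all), Snhg12 among them. A run of at least 5 pyrimidines across the start, a known feature of genes for ribosomal proteins, was in 11 host promoters (31.4%; 10.1% of all), 16 bases long in Rack1 and 9 bases long in Snhg12. These matches describe the letters only; the searches for hexamers and pyrimidine runs were added after values were seen.

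The 4 genes named at the outset shared a pattern over the groups, high at E12.5, low at E14.5 in WT and ERG apart from 1 WT array of Snord118 and from Rny1 in ERG, whose stages overlapped, and high at both stages in ERG/GATA1s. Rnu12, the U12 RNA, read 8.39 and 8.87 on the WT arrays at E12.5 (array labelled female, then male), 8.28 and 8.39 with ERG, 9.03 and 8.99 with GATA1s, and 9.06 and 9.29 with ERG/GATA1s. At E14.5 it read 6.12 and 5.98 on the WT arrays, 5.54 and 6.03 with ERG, 8.15 and 6.25 with GATA1s, and 8.85 and 9.07 with ERG/GATA1s. The E14.5 ERG/GATA1s arrays thus lay within the range of the E12.5 arrays, while both WT and both ERG arrays at E14.5 lay below every E12.5 array. The GATA1s arrays at E14.5 stood apart from each other, the one labelled female near the ERG/GATA1s arrays and the one labelled male near WT. Between the means of ERG/GATA1s and WT at E14.5 the difference was 2.91 ± 0.41 (SE, n = 2 arrays each), a 7.52-fold higher signal.

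Rnu3a, a U3 RNA gene, read 9.13 and 9.33 on the WT arrays, 9.18 and 8.66 with ERG, 9.82 and 9.69 with GATA1s, and 9.37 and 9.19 with ERG/GATA1s at E12.5. Its E14.5 signals were 6.79 and 6.04 on the WT arrays, 6.45 and 6.50 with ERG, 8.52 and 6.68 with GATA1s, and 9.0 and 9.19 with ERG/GATA1s. No WT or ERG array at E14.5 reached the lowest E12.5 array, and the ERG/GATA1s arrays did not overlap with WT. That difference was 2.68 ± 0.36 (SE), 6.41-fold.

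Rny1, a Y RNA gene, read 5.56 and 5.65 on the WT arrays, 5.28 and 4.96 with ERG, 6.88 and 6.88 with GATA1s, and 5.93 and 7.29 with ERG/GATA1s at E12.5. At the later stage the signals were 4.48 and 4.61 on the WT arrays, 5.04 and 4.36 with ERG, 6.0 and 5.02 with GATA1s, and 6.83 and 7.18 with ERG/GATA1s. Here both groups with GATA1s lay above WT at each stage without overlap. ERG/GATA1s exceeded WT by 1.01 ± 0.38 (SE) at E12.5 and by 2.46 ± 0.38 (SE) at E14.5. The E12.5 value rested on the ERG/GATA1s array labelled male, whose sex markers opposed its label, and was 0.15 without the 3 such arrays.

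Snord118, the U8 RNA gene, read 9.80 and 10.02 on the WT arrays, 9.69 and 9.17 with ERG, 10.89 and 10.70 with GATA1s, and 10.49 and 10.86 with ERG/GATA1s at E12.5. Its E14.5 signals were 10.39 and 7.61 on the WT arrays, 7.27 and 7.31 with ERG, 11.63 and 10.76 with GATA1s, and 11.16 and 11.25 with ERG/GATA1s. The WT arrays at E14.5 differed from each other by 2.78, more than any other group's pair did for this gene, so its difference from WT depended on which WT array was kept. All 4 arrays with GATA1s at E14.5 lay above both WT arrays. Over both stages ERG/GATA1s exceeded WT by 1.49 ± 0.37 (SE), or 0.82 without the male-labelled WT array of E14.5 and 2.15 without the one labelled female.

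**Figure D1:**
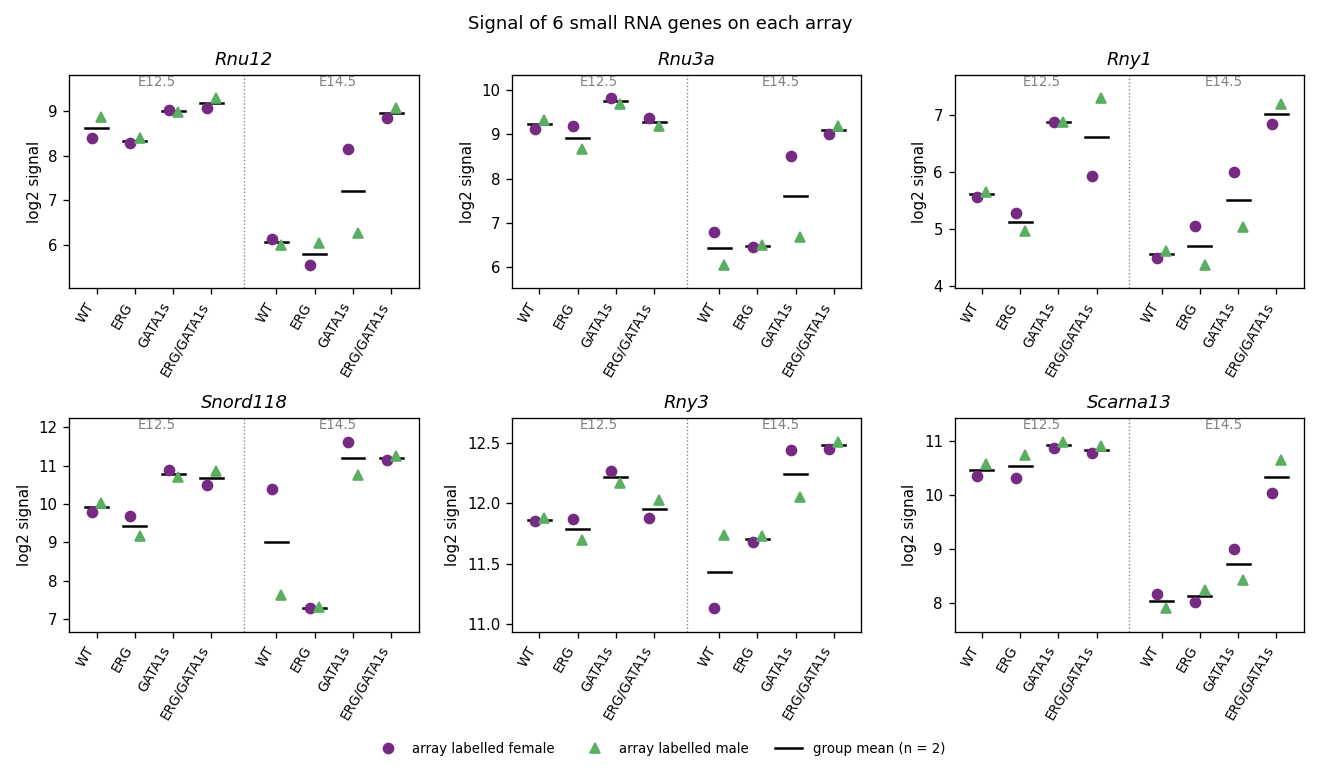
Signal (log2) of 6 small RNA genes on each of the 16 arrays, by genotype at E12.5 (left of the dotted line) and E14.5 (right). Circles are arrays labelled female, triangles arrays labelled male and bars group means of 2 arrays; axes do not start at 0 and differ between panels. Rnu12 at E14.5 sits at 5.54 to 6.12 in WT and ERG and at 8.85 and 9.07 in ERG/GATA1s, while the WT arrays of Snord118 at E14.5 lie 2.78 apart.

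The other Y RNA gene, Rny3, was higher in both GATA1s genotypes. It read 11.85 and 11.88 on the WT arrays, 11.87 and 11.70 with ERG, 12.27 and 12.17 with GATA1s, and 11.88 and 12.03 with ERG/GATA1s at E12.5. The E14.5 signals were 11.13 and 11.74 on the WT arrays, 11.68 and 11.73 with ERG, 12.44 and 12.05 with GATA1s, and 12.45 and 12.51 with ERG/GATA1s. GATA1s arrays lay above WT arrays at both stages without overlap, while ERG/GATA1s arrays did so at E14.5 and met the WT arrays at E12.5. A pair, here and below, joins arrays of the groups compared by labelled sex alone, within a stage or within a genotype. The labels name no shared embryo or litter, and sex markers opposed the label on 3 arrays. Counts of pairs therefore describe direction only and are not evidence from paired samples. Rny3 rose over both stages by 0.58 ± 0.13 (SE) in GATA1s (limma, Benjamini-Hochberg adjusted p = 0.0252, higher in 4 of 4 pairs of arrays) and by 0.57 ± 0.13 (SE) in ERG/GATA1s (adjusted p = 0.0138, 4 of 4 pairs). The call in GATA1s was lost without any 1 of 6 arrays and the call in ERG/GATA1s without any 1 of 4; the difference in ERG/GATA1s at E14.5, 1.05 ± 0.18 (SE, adjusted p = 0.0029), held without each array in turn. Without the 3 arrays with opposed sex markers the adjusted p for Rny3 was 0.0978 in GATA1s, 0.176 in ERG/GATA1s and 0.0805 in the latter at E14.5.

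The mRNA of Ro60, the protein that binds Y RNAs, was also higher in both genotypes. Of 8 listed genes for proteins that bind Y RNAs or other RNA polymerase III transcripts, 1, Ro60, rose in GATA1s and in ERG/GATA1s over both stages and none fell. Ro60 mRNA read 5.74 and 4.91 on the WT arrays, 5.15 and 5.33 with ERG, 6.51 and 6.47 with GATA1s, and 5.97 and 5.55 with ERG/GATA1s at E12.5. At E14.5 it read 4.99 and 5.52 on the WT arrays, 5.08 and 5.0 with ERG, 6.46 and 6.97 with GATA1s, and 6.52 and 6.65 with ERG/GATA1s. All 4 GATA1s arrays lay above all 8 WT and ERG arrays. The difference over both stages was 1.31 ± 0.18 (SE, limma adjusted p = 0.00177, 4 of 4 pairs) in GATA1s and 0.88 ± 0.18 (SE, adjusted p = 0.00757, 4 of 4 pairs) in ERG/GATA1s, and both held without each array in turn. Without the 3 arrays whose sex markers opposed their label they were 1.34 (adjusted p = 0.0419) and 1.02 (adjusted p = 0.0847).

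Scarna13, a guide RNA for spliceosomal RNAs that lies in Snhg10, had the smallest adjusted p in ERG/GATA1s among the 57 genes. It read 10.35 and 10.56 on the WT arrays, 10.30 and 10.74 with ERG, 10.86 and 10.98 with GATA1s, and 10.77 and 10.89 with ERG/GATA1s at E12.5. By E14.5 the signals were 8.16 and 7.89 on the WT arrays, 8.01 and 8.23 with ERG, 9.0 and 8.42 with GATA1s, and 10.02 and 10.64 with ERG/GATA1s. The 6 arrays of the other genotypes at E14.5 all lay below the ERG/GATA1s arrays, whose higher one fell within the E12.5 range. Scarna13 was 4.94-fold higher in ERG/GATA1s than in WT at E14.5 (2.31 ± 0.22 log2, SE, limma adjusted p = 6.31e-05) and 2.53-fold over both stages (1.34 ± 0.16 log2, adjusted p = 0.000295, 4 of 4 pairs). Both calls held without each array in turn and without the 3 arrays with opposed sex markers, where the values were 2.61 (adjusted p = 0.0114) and 1.47 (adjusted p = 0.0253).

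Between the stages, averaged over the 4 genotypes, box H/ACA RNAs mostly fell, while box C/D RNAs rose and fell no more often than all features did. At an adjusted p under 0.05, 36 of the 57 genes (63.2%) changed, or 33 of 53 without the 4 named genes, with 13 rising and 23 falling. This total is near the 56.2% of all 16258 features tested (29.0% higher and 27.2% lower), so nothing is read from it. The 57 genes had a median of -0.11, against -0.03 for all features. Of 20 Snora genes 3 rose and 13 fell (median -0.43), and of 29 Snord genes 8 rose and 6 fell (median 0.15). Among the Scarna genes Scarna8 and Scarna17 rose, the latter not without any 1 of 5 arrays, and Scarna13 fell. These counts include the 4 named genes, of which 3 fell.

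The largest falls outside those 4 were in Scarna13 (-1.89 ± 0.11, SE) and in the box H/ACA RNAs Snora75 (-1.70), Snora31 (-1.51), Snora33 (-1.49) and Snora73b (-1.23). Each was lower in 8 of 8 pairs of arrays, matched within genotype by labelled sex alone. Snora75 read 7.72 to 8.10 on the E12.5 arrays and 5.16 to 7.07 on the E14.5 arrays, which did not overlap. The largest rises were in Snord87 (1.05 ± 0.16, SE), Snora20 (0.91), Snord42b (0.81), Snord42a (0.75) and Snord95 (0.70), each higher in 8 of 8 pairs. Snord42b read 6.21 to 7.01 at E12.5 and 7.0 to 8.41 at E14.5, so that only the edges of the stages met. Limma's adjusted p for these 10 genes lay between 3.1e-08 and 0.00212, and all 10 calls held without each array in turn and without the 3 arrays with opposed sex markers. Marker levels moved between the stages too: the mean of 5 hepatocyte markers was 9.31 to 10.5 on E12.5 arrays and 11 to 11.6 on E14.5 arrays, and that of 4 macrophage markers 4.96 to 5.50 and 6.52 to 7.45. Their part in these results was not tested, and in such suspensions fewer cells of a type and less RNA per cell cannot be told apart.

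Taken genotype by genotype, 11 falls were common to WT, ERG and GATA1s, and 1 of them was called in ERG/GATA1s. The 11 include Rnu12 and Rnu3a, named genes that are described without a test. How many of all features fell in these 3 genotypes, or also in ERG/GATA1s, was not counted, so nothing is read from this contrast. A fall that was not called is also not shown to be absent. In WT 9 genes rose and 11 fell (9 and 9 of 53 without the named genes), against 18.2% of all features called (11.4% higher, 6.75% lower). In ERG 6 rose and 14 fell (6 and 11 of 53), against 17.6% (12.7% and 4.88%). In GATA1s 0 rose and 25 fell (0 and 22 of 53), against 22.5% (13.8% and 8.67%), and at an unadjusted p under 0.05 by limma 0 were higher and 29 lower. In ERG/GATA1s 9 rose and 1 fell (9 and 1 of 53), against 21.9% (7.89% lower, the rest higher). The same 11 genes fell in WT, ERG and GATA1s: Rnu12, Rnu3a, Scarna13, Snora31, Snora33, Snora44, Snora62, Snora73a, Snora73b, Snora74a and Snora75. In ERG/GATA1s 1 of these 11, Snora31, fell (-1.42 ± 0.32, SE, limma adjusted p = 0.0074), and 3 had a difference above 0. Of the 9 genes that rose in WT, 4 also rose in ERG/GATA1s, namely Snora20, Snora21, Snord42b and Snord87. These 4 rose in ERG as well. Many of these calls rested on single arrays: without each array in turn 6 of 20 held in WT, 6 of 20 in ERG, 9 of 25 in GATA1s and 2 of 10 in ERG/GATA1s (Snora20 and Snord15a). Outside the named genes, 10 of 22 calls in GATA1s and 2 of 10 in ERG/GATA1s (Snord15a and Snord33) held without the 3 arrays with opposed sex markers. Among the 11 shared falls, those of Rnu12, Snora33, Snora44, Snora62, Snora73a and Snora73b in GATA1s were then lost, as was that of Snora31 in WT and in ERG/GATA1s.

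Whether the stage difference itself depended on genotype was tested with all 3 interaction terms together. The test was passed by 6 of the 57 genes, or 5 of 53 without the named ones, against 2.42% of all features. Scarna13 differed between the stages by -2.43 in WT and by -0.50 in ERG/GATA1s, a difference between stage changes of 1.93 ± 0.31 (SE, adjusted p = 0.0195). Snord14e, a box C/D RNA of the U14 family that lies in Hspa8, rose by 0.96 in WT; its stage change was lower by 1.33 ± 0.24 in GATA1s (adjusted p = 0.0397) and by 1.22 ± 0.24 in ERG/GATA1s (adjusted p = 0.0394). Snord35a had a stage change 1.65 ± 0.32 lower in GATA1s than in WT (adjusted p = 0.0488). For Snora44 and Snora74a, with 2.83 ± 0.61 and 1.69 ± 0.35 in ERG/GATA1s, the single term missed the threshold (adjusted p = 0.0562 and 0.0503). No ERG term was called for any of the 57 genes (limma; 2 had an unadjusted p under 0.05), with 0.228% of all features called. The GATA1s term was called for 2 genes (0.351% of all features; lower 0.0431%) and the ERG/GATA1s term for 3, or 2 of 53 without Rnu3a (0.609%; higher 0.406%, lower 0.203%). Without the 3 arrays with opposed sex markers, 0 of the 57 genes passed the joint test.

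**Figure D2:**
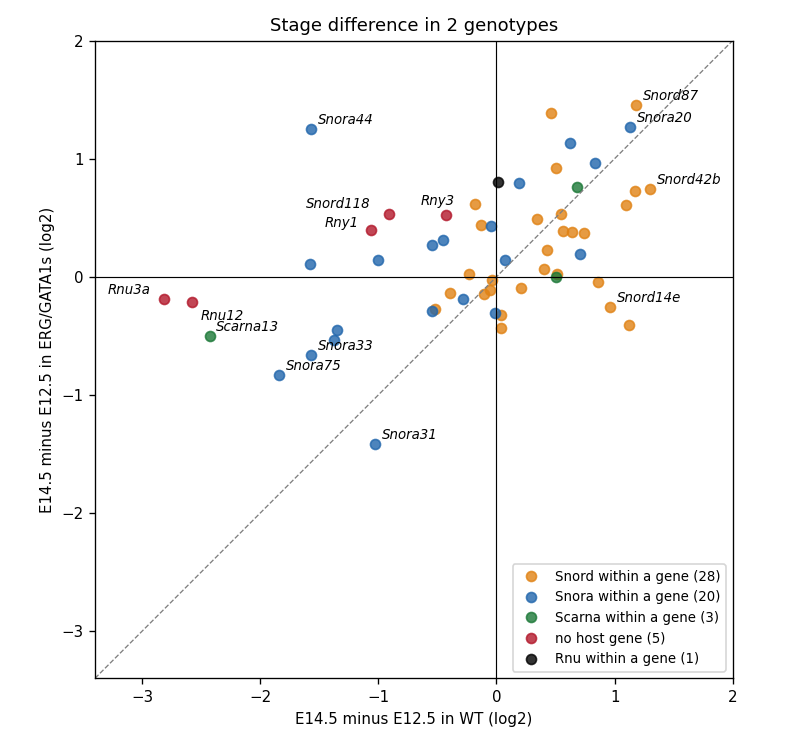
Difference between E14.5 and E12.5 (log2) in WT (x axis) and in ERG/GATA1s (y axis) for the 57 tested genes, coloured by class and by whether the gene lies within another. The dashed line marks equal differences; Scarna13, at -2.43 in WT and -0.50 in ERG/GATA1s, and Snora44 lie far above it, and Snord14e lies below it.

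With ERG alone 0 of 57 genes were called over both stages by limma, against 0.283% of all features (0.240% higher, 0.0431% lower), and 4 had an unadjusted p under 0.05, all lower. At E14.5 0 were called, against 1.69% (1.19% higher, 0.504% lower), with 5 at an unadjusted p under 0.05, all lower. At E12.5 0 were called, as were 0% of all features, with 0 at an unadjusted p under 0.05. The smallest p values outside the named genes were those of Scarna17 (-0.36 ± 0.12, SE, adjusted p = 0.321), Snord35a (-0.39 ± 0.16, adjusted p = 0.534) and Snord85 (-0.40 ± 0.17, adjusted p = 0.559). Without the male-labelled WT array of E14.5, 3 genes were called. The 57 genes had a median difference of -0.16 over both stages, against -0.0025 for all features. Of the 57, 50 were below 0, and how many of all features were below 0 was not counted. Without the female-labelled WT array of E14.5 the median of the 57 genes was 0.005.

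With GATA1s alone 1 of 53 genes outside the named ones, Rny3, rose over both stages by limma, and 0 fell. Counting the named genes, which are described without a test, 3 of 57 rose and 0 fell. At an unadjusted p under 0.05, 10 of the 57 were higher and 9 lower. In all features 3.81% were called, 2.18% higher and 1.63% lower. Scarna13 was 0.58 higher (adjusted p = 0.0598) and missed the threshold. At E12.5 0 genes were called by limma (12 had an unadjusted p under 0.05, all higher; 1.33% of all features were called, 0.824% higher and 0.511% lower). At E14.5 Snord14e was called, lower by 0.96 ± 0.17 (SE, limma adjusted p = 0.0148; 1.07% of all features called, 0.757% higher and 0.314% lower). Snord14e read 9.05 and 8.72 in WT and 7.98 and 7.87 in GATA1s, without overlap, and stayed called without the 3 arrays with opposed sex markers (adjusted p = 0.0226) but not without the female-labelled WT array of E14.5 or either E14.5 GATA1s array. Unadjusted, 18 genes were lower and 6 higher at that stage. Without the male-labelled WT array of E14.5, 23 genes were called at E14.5 and 11 over both stages. Marker levels also differed: 4 megakaryocyte markers averaged 9.97 to 10 in GATA1s and 8.75 to 9.2 in WT at E12.5, and 9.57 to 10 against 9.04 to 9.15 at E14.5. The mean of 5 hepatocyte markers was 9.31 to 9.34 in GATA1s and 10.2 to 10.4 in WT at E12.5. Their part in the results on GATA1s was not tested.

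In ERG/GATA1s, 11 of 57 genes rose and 3 fell over both stages, or 7 and 3 of 53 without the named genes. Of all features 10.6% were called, 4.06% higher and 6.52% lower, and their median was -0.01 against 0.28 for the 57 genes. By limma 0 genes were called at E12.5 (5 had an unadjusted p under 0.05, all higher, and 0.00615% of all features were called). At E14.5, 15 rose and 4 fell, or 11 and 4 of 53 without the named genes, against 9.16% of all features (4.47% higher, 4.69% lower). This contrast was in view when the genes were selected on earlier results, so nothing is read from the share. Without the 3 arrays with opposed sex markers, 6 genes were called at E14.5 and 2 over both stages; outside the named genes these were Scarna13, Snora44 and Snora74a at E14.5 and Scarna13 over both stages.

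Among box H/ACA RNAs at E14.5, 7 of 20 rose in ERG/GATA1s and 0 fell (median 0.63). Snora44, in Snhg12, read 7.12 and 5.56 on the WT arrays, 5.85 and 5.77 with ERG, 7.07 and 5.82 with GATA1s, and 8.38 and 9.30 with ERG/GATA1s at that stage. The ERG/GATA1s arrays lay above all others, and the difference from WT was 2.50 ± 0.43 (SE, limma adjusted p = 0.00243, 2 of 2 pairs). Snora74a, in Snhg4, read 7.14 and 6.2 in WT and 8.18 and 8.24 in ERG/GATA1s, higher by 1.54 ± 0.25 (adjusted p = 0.00171). Snora62, which lies in the gene for the ribosomal protein Rpsa, read 5.12 and 4.83 in WT and 6.45 and 6.4 in ERG/GATA1s, higher by 1.45 ± 0.26 (adjusted p = 0.00349; 0.0735 without the 3 arrays with opposed sex markers). In each of the 3 the groups did not overlap, and each call held without each array in turn. At E12.5 these genes did not pass the test, with ERG/GATA1s signals of 7.59 and 7.58 for Snora44 against 7.71 and 8.11 in WT.

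Over both stages Snora62 (0.88 ± 0.19, SE, adjusted p = 0.00927), Snora44 (1.09 ± 0.30, adjusted p = 0.0354), Snora74a (0.70 ± 0.18, adjusted p = 0.0233) and Snord35b (0.71 ± 0.19, adjusted p = 0.0287) also rose. Snora44 and Snora74a were higher in 2 of 4 pairs, those at E14.5, and the others in 4 of 4. Leaving out 1 array ended the call of Snora62 in 1 case, of Snora74a in 4, of Snord35b in 6 and of Snora44 in 7. Scarna13 was the gene outside the named ones whose call over both stages held in every case.

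Box C/D RNAs at E14.5 split, with 3 of 29 higher (Snord118 among them) and 4 lower in ERG/GATA1s (median 0.14). Snord85, a box C/D RNA gene, read 5.96 and 4.75 on the WT arrays, 4.67 and 4.48 with ERG, 4.54 and 4.22 with GATA1s, and 3.95 and 3.75 with ERG/GATA1s. Both ERG/GATA1s arrays were the lowest of the stage, and the difference from WT was -1.51 ± 0.24 (SE, limma adjusted p = 0.00145), held without each array in turn but at an adjusted p of 0.055 without the 3 arrays with opposed sex markers. Over both stages the difference of Snord85 was -0.74 ± 0.17 (adjusted p = 0.0135, lower in 2 of 4 pairs). Snord95 and Snord96a, both in Rack1, fell by 0.65 ± 0.18 (adjusted p = 0.037) and 0.65 ± 0.17 (adjusted p = 0.0245) over both stages, lower in 4 of 4 pairs each. Their calls were lost without any 1 of 9 and of 5 arrays. Snord14e also fell at E14.5, by 0.66 ± 0.17 (adjusted p = 0.0269). The 3 that rose at E14.5 were Snord118 and the pair in Rps3, Snord15a (0.98 ± 0.25, adjusted p = 0.0249) and Snord15b (1.05 ± 0.28, adjusted p = 0.0336), a pair named after its values were seen.

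Length went with these differences. Of the 30 tested genes of at least 100 bases, 15 rose in ERG/GATA1s at E14.5 and 0 fell, and without the named genes 11 of 26 rose and 0 fell. Of the 27 shorter genes 0 rose and 4 fell by limma. At an unadjusted p under 0.05, 21 of the longer genes were higher and 0 lower, and 3 of the shorter ones were higher and 9 lower. Spearman's rho between length and the difference over the 57 genes was 0.66 at E14.5 and 0.17 at E12.5, as a description over genes that share the same arrays. The 57 include the 4 named genes, chosen with their signals known and all longer than 100 bases. No rho was computed without them, so part of it may come from that choice. For GATA1s against WT, a comparison with the same WT arrays, rho was 0.63 at E14.5 and 0.24 at E12.5, and for ERG 0.23 and 0.01. The stage difference ran the other way with length, with rho of -0.59 in WT, -0.57 in ERG, -0.41 in GATA1s and -0.11 in ERG/GATA1s. Class and length overlap, since 25 of the 27 short genes are Snord genes; among the 4 tested Snord genes of at least 100 bases 3 rose, Snord118 among them, and among the 25 shorter ones 0 rose and 4 fell. The split at 100 bases was made after values were known.

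**Figure D3:**
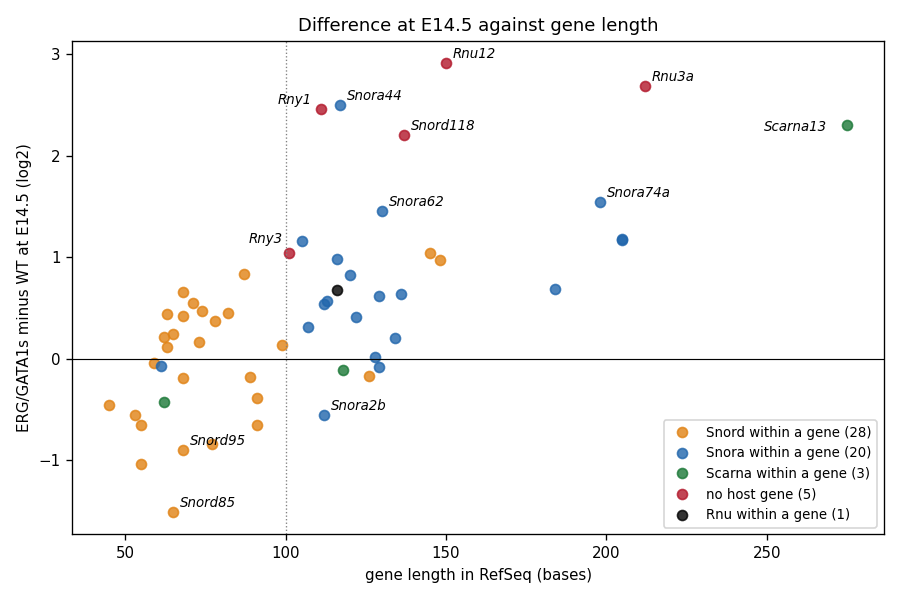
Difference between ERG/GATA1s and WT at E14.5 (log2, y axis) against gene length in RefSeq (bases, x axis) for the 57 tested genes, coloured by class and host. The dotted line marks 100 bases; the 15 genes that rose lie right of it, and the 4 that fell, Snord85 lowest at -1.51, lie left of it.

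Arrays of a group also differed from each other across these RNAs, with the largest median gaps in WT and GATA1s at E14.5. In WT at E14.5 the array labelled female was above the one labelled male in 55 of 57 genes, with a median gap of 0.92. Over all features 37.5% were higher and the median gap was -0.07. Of the 57 genes 23 were at least 1 apart, against 2.48% of all features. Snord118 had the largest gap (2.78) and Rny3 went the other way (-0.61). In GATA1s at E14.5 the median gap was 0.46, with the largest gap in Rnu12 (1.90). There the array labelled female was higher in 53 of 57 genes and in 41.0% of all features. In ERG at E12.5 it was higher in 47 of 57 genes, with a median gap of 0.21, while 44.2% of all features were higher. In ERG at E14.5 it was higher in 40 genes and in 47.7% of all features, with a median gap of 0.07. In ERG/GATA1s at E14.5 the median gap was -0.07. Sex markers also parted the arrays where the gaps were largest. Xist read 11.52 and 3.94 in WT and 10.53 and 3.97 in GATA1s at E14.5 (array labelled female, then male). In ERG at E12.5 it read 10.83 and 5.73. In every other group the Xist signals lay closer together, and the median gap was between -0.11 and 0.07. Sex and other differences between these arrays cannot be told apart, and the part of sex was not tested. With 2 arrays in a group it cannot be said which WT array is typical: without the female-labelled WT array of E14.5 24 genes were called in ERG/GATA1s over both stages, and the median difference moved from 0.28 to 0.46; without the one labelled male it moved to 0.08.

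**Figure D4:**
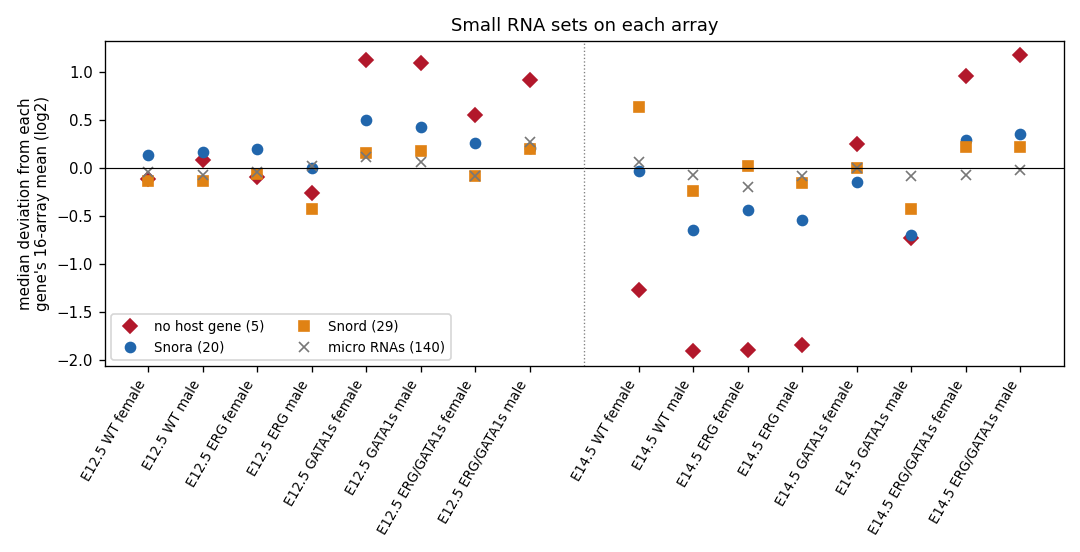
Median deviation (log2) of 4 sets of genes from each gene's mean over the 16 arrays, 1 point per set and array, with E12.5 arrays left and E14.5 arrays right of the dotted line. The 5 genes without a host are Rny3 and the 4 named genes, which were chosen with their signals in these groups known. Nothing about genes without a host is read from their points. These 5 sit between -1.27 and -1.91 on the E14.5 WT and ERG arrays and at 0.96 and 1.18 on the E14.5 ERG/GATA1s arrays. The 29 Snord genes stand at 0.64 on the female-labelled WT array of E14.5 and -0.24 on the one labelled male. The 140 micro RNA genes stay between -0.20 and 0.27.

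Of the 52 genes within a host, 6 rose and 3 fell in ERG/GATA1s over both stages. The 5 without one are the 4 named genes and Rny3, so the sets were not tested against each other. Other structured RNA genes outside the symbol rule were listed for comparison: Rpph1, Rprl1 and Rprl2 (RNase P RNA and genes like it), Rmrp, Rn7sk, Terc and Vaultrc5 (vault RNA). Of these 7, 6 fell between the stages and none rose (median -0.66), where 27.2% of all features fell. In ERG/GATA1s over both stages 3 rose and none fell (median 0.55), where 4.06% rose and 6.52% fell. At E14.5 Vaultrc5 read 5.52 and 6.13 in WT but 7.5 and 8.07 with ERG/GATA1s, higher by 1.96 ± 0.28 (SE, limma adjusted p = 0.000712). Rpph1 was 1.03 ± 0.18 higher there (adjusted p = 0.00327) and Rprl2 0.91 ± 0.22 (adjusted p = 0.0206). Without the 3 arrays with opposed sex markers the adjusted p was 0.0337 for Vaultrc5, 0.0744 for Rpph1 and 0.0918 for Rprl2. Vaultrc5 also rose in GATA1s over both stages (0.96 ± 0.20, limma adjusted p = 0.0177). Without the same 3 arrays that difference was 1.01 and was not called. Nor were the differences in ERG/GATA1s over both stages, at 1.06 for Vaultrc5, 0.56 for Rpph1 and 0.415 for Rprl2. Among 140 tested micro RNA genes 1 rose and 2 fell in the same comparison with WT over both stages.

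Host genes were called in the same direction as the RNAs within them in 5 of 18 cases between the stages. A host with its own probe set was tested for 28 of the small RNA genes, in 24 distinct hosts. Where a host had several probe sets, the one with the highest mean stood for it. Rps12 had 14, Rpsa 5 and Tpt1 4, while Ncl had 1. The other probe sets of these hosts are not given here, so each host direction holds for the probe set used. Between the stages 18 of these 28 small RNAs were called; for 5 the host was called in the same direction, for 5 in the opposite one and for 8 it was not called. Snora33 fell by 1.49 while its host Rps12 rose by 0.47 ± 0.07 (SE, limma adjusted p = 6.47e-05). Snora75 fell by 1.70 while Ncl, the gene for nucleolin, differed by -0.07 (adjusted p = 0.503), and Snora31 fell by 1.51 while Tpt1 differed by 0.08 (adjusted p = 0.261). In ERG/GATA1s at E14.5, 6 of the 28 small RNAs were called and 1 host with its RNA, Rpsa, which was 0.64 ± 0.14 higher (adjusted p = 0.0126) beside Snora62.

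RNAs within 1 host did not always move together. Of 9 hosts with at least 2 tested RNAs, Snhg12 gave opposite stage changes: Snora44 fell by 0.96 ± 0.21 (SE, limma adjusted p = 0.00202) and Snora16a rose by 0.48 ± 0.12 (adjusted p = 0.00566). The call of Snora44 was lost without the 3 arrays with opposed sex markers (-0.63, adjusted p = 0.0731). By genotype, Snora44 fell and Snora16a did not pass the test in WT, ERG and GATA1s, where Snora16a differed by -0.16 in GATA1s; in ERG/GATA1s Snora16a rose by 1.14 (adjusted p = 0.00638) and Snora44 was above 0 (adjusted p = 0.0507). Both lie in the gene whose start region is shown; Snora16a, like Snora73a, was named after its values were seen. Snora73a and Snora73b, the U17 RNAs from Snhg3, fell by 1.15 and 1.23, and Snord42a and Snord42b from Rpl23a rose by 0.75 and 0.81. Near-identical copies such as Snora73a and Snora73b may share probes, so they are not independent. Snord95 and Snord96a from Rack1 rose with stage by 0.70 and 0.53 and were lower in ERG/GATA1s at E14.5 by 0.90 and 0.84.

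**Figure D5:**
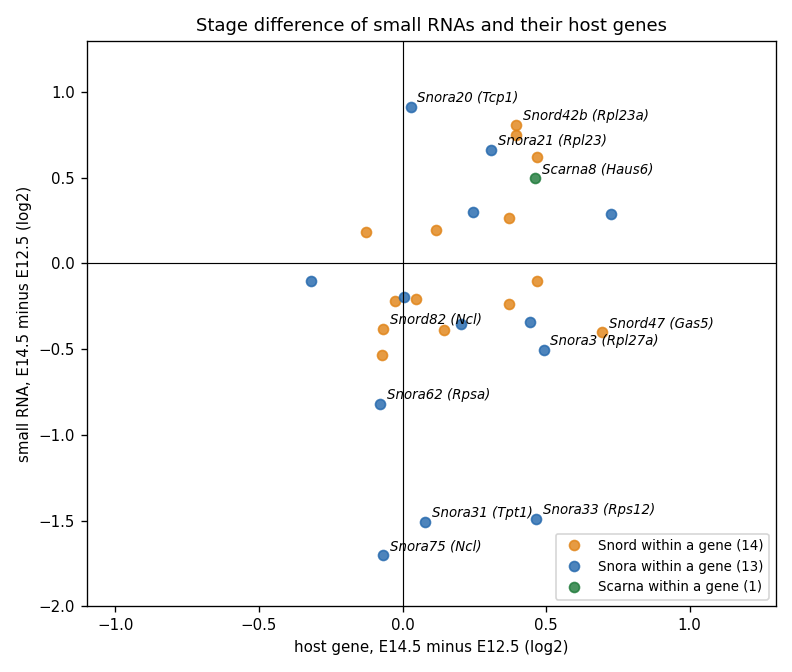
Stage difference (E14.5 minus E12.5, log2, averaged over the genotypes) of the host gene (x axis) and of the small RNA within it (y axis) for 28 pairs, coloured by class, with host symbols in brackets. Snora75, Snora31 and Snora33 lie at -1.70, -1.51 and -1.49 while their hosts lie between -0.07 and 0.47.

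Genes for proteins that carry or make these RNAs were read against all features, of which 4.06% rose and 6.52% fell in ERG/GATA1s over both stages. Of 20 genes for snoRNP core and assembly proteins 0 rose and 2 fell in ERG/GATA1s over both stages: Gar1, a core protein of H/ACA particles (-0.39 ± 0.11, SE, limma adjusted p = 0.0451), and Shq1, which helps assemble them (-0.46 ± 0.14, adjusted p = 0.0453). Of 30 genes for snRNA transcription, processing and snRNP assembly 0 rose and 2 fell, Gemin2 (-0.48 ± 0.11, adjusted p = 0.0167) of the SMN complex and Ints8 (-0.52 ± 0.13, adjusted p = 0.0234) of the Integrator complex. Of 7 genes for minor spliceosome proteins 0 rose and 0 fell over both stages, and at E14.5 1 fell, Zcrb1 (-0.43 ± 0.12, adjusted p = 0.0421). The fall of Gar1 was seen at E14.5 (-0.81 ± 0.16, limma adjusted p = 0.00629). There it read 8.54 and 8.35 in WT and 7.58 and 7.70 in ERG/GATA1s without overlap. At E12.5 no fall was seen, with 7.45 and 7.70 in WT and 7.71 and 7.51 in ERG/GATA1s. Over both stages the calls of Gar1, Shq1, Gemin2 and Ints8 were each lost without some single arrays, from 5 for Gemin2 and for Ints8 to 13 for Shq1. None of these 4 was called over both stages when the 3 arrays with opposed sex markers were left out (adjusted p of 0.343 for Gar1, 0.392 for Shq1, 0.125 for Gemin2 and 0.272 for Ints8), nor was Gar1 at E14.5 (adjusted p = 0.0906). Of 23 listed host genes 0 rose and 0 fell over both stages by limma, and at E14.5 Rpsa and Rps12 rose. Outside that list Rps3a1, host of Snord73a and Snord73b and named after its values were seen, rose over both stages by 0.51 ± 0.11 (adjusted p = 0.00998), while these RNAs, at -0.09 and 0.54, did not pass the test. Marker levels also differed between these groups: 4 erythroid markers averaged 10.5 to 10.8 in WT and 9.54 to 9.88 in ERG/GATA1s at E14.5, and 4 megakaryocyte markers 9.04 to 9.15 and 9.88 to 9.96. Their part in the results on ERG/GATA1s was not tested.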

How the data were processed

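Total RNA was labelled with an Affymetrix biotin kit and hybridised to 16 arrays, per the labels' protocols. The authors deposited log2 signals per probe set, made with RMA per the submitters' processing notes (version not given in the sources used here) and rounded to 2 decimals. Of 28270 probe sets, 21780 had 1 gene symbol; the probe set with the highest mean stood for each symbol. Units above the 30th percentile on at least 2 arrays were kept (16258). limma 3.58.1 in R 4.3.3 was fitted on all arrays with 1 mean per group and labelled sex (7 residual degrees of freedom), with Benjamini-Hochberg adjustment over all units at 0.05. The fit was tested on simulated data. The number of arrays limits the precision. Hosts and lengths came from RefSeq (GRCm38.p6), matched by gene ID for all 61 genes. The genes named are the 4 of the rule, the 5 largest called differences per direction and comparison (else the 3 of smallest p), the largest range per class, and up to 4 called genes per list. Members, lists and this rule were chosen with earlier results of these data known. Alternatives covered filters, scaling, weights, probe sets and left-out arrays.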

Additional observations from a re-analysis of the deposited data

Results flagged for a closer look

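Stage changes that differed between genotypes by the joint test of the 3 interaction terms (limma, Benjamini-Hochberg adjusted over 16258 features) were found for 5 genes outside those named by the rule, and are given as values. Scarna13 had an adjusted p of 0.00974 and lost the call without the male-labelled ERG/GATA1s array of E14.5. Snord14e had 0.0204 and lost it without any 1 of 5 arrays. Snora44 had 0.0278 and lost it without any 1 of 6, Snora74a had 0.0332 and lost it without any 1 of 9, and Snord35a had 0.0381 and lost it without any 1 of 11. Without the 3 arrays whose sex markers opposed their label the adjusted p of these 5 genes lay between 0.165 and 0.266.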

How the results depend on the processing

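Counts of called genes among the 57 depended on single arrays. Over single arrays left out, the count ran from 0 to 3 for ERG, 0 to 11 for GATA1s, 5 to 24 for ERG/GATA1s and 32 to 41 between the stages; at E14.5 from 0 to 8, 0 to 23 and 9 to 24 for the same genotypes; at E12.5 from 0 to 3 for GATA1s and 0 to 2 for ERG/GATA1s; and from 1 to 22 for the joint interaction test. The lowest count for ERG/GATA1s came without the E12.5 array labelled male of that group, and the highest for GATA1s without the male-labelled WT array of E14.5. For GATA1s over both stages, 1 gene was called with no filter, with only the arrays compared and with all probe sets, 5 with array weights, 7 with the mean Y-linked level in place of labelled sex and 0 without the 3 arrays whose sex markers opposed their label (these 2 settings were chosen after seeing the data). For ERG/GATA1s over both stages array weights gave 3, the Y-linked level gave 23, and without the 3 arrays 2 were called over both stages and 6 at E14.5. The joint test called 2 genes with no filter, 2 after further quantile normalization and 0 without the 3 arrays. Over single arrays left out, the median difference of the 57 genes changed sign for ERG (-0.35 to 0.005) and for GATA1s (-0.13 to 0.22, and -0.0025 with no filter) over both stages, as did Rnu3a (-0.29 to 0.04) and Rny1 (-0.36 to 0.03) in ERG. The cause was not tested. No paired analysis was possible because the labels give no replicate numbers. The counts of pairs, matched by labelled sex alone, are descriptions of direction. With 2 arrays a group, leaving out 1 leaves a lone array that is assumed to vary like the other groups.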

Other observations

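Probe sets paired with several symbols are outside the rule but hold other RNAs of these kinds, in 61 probe sets. As means over probe sets and arrays, 9 probe sets for U1 RNA genes read 8.83, 8.64, 9.76 and 9.23 at E12.5 in WT, ERG, GATA1s and ERG/GATA1s, and 8.40, 8.24, 9.02 and 9.43 at E14.5. For U2 RNA, 7 probe sets read 11.24, 11.27, 11.37 and 11.50 at the earlier stage and 10.41, 10.33, 10.60 and 11.07 at the later. For the U3 copy Rnu3b, 4 probe sets gave 9.31, 9.24, 9.93 and 9.57 at the earlier stage and 7.19, 7.42, 8.47 and 9.05 at the later. The Snord116 cluster, with 24 probe sets, read 4.38, 4.17, 4.17 and 4.04 at the earlier stage and 3.68, 3.87, 3.76 and 5.41 at the later. The ERG/GATA1s arrays of E14.5 were 4.54 and 6.28. The lower of these was below the female-labelled WT and ERG arrays of E12.5 (4.59 and 4.89), so the higher mean rests largely on 1 array. Symbols with more than 1 probe set were also compared: for Snord118, Scarna17 and Snora30 both probe sets held identical values on every array, so they add no independent measurement. The second probe sets of Snora21, Snora3 and Snord58b followed the first with a correlation of 1.0 over the 16 arrays.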
